A study of Mus musculus with 30 samples.

Results

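Id1, Id2, Id3, Id4, Smad6, Smad7 and Smad9 are transcriptional regulators that act inside the bone morphogenetic protein (BMP) and transforming growth factor β (TGF-β) pathway or are among its known targets. The 7 genes were chosen by symbol, with earlier results of these data known, from the 35973 genes of the blebbistatin table. Each was also found in the Y27632 table of 35972 genes. All 7 passed the filter on low values, a mean of at least 10 normalised counts, and entered every test across genes. Expression was measured by poly(A) RNA-seq in primary mouse fibroblasts of the tail tendon, genotype wildtype, which had been grown in medium with a higher serum content and were treated in 0.1% serum. The groups were DMSO (the solvent), blebbistatin at 10 µM, which blocks the motor activity of non-muscle myosin II, and Y27632 at 30 µM, a kinase inhibitor that lowers actomyosin contractility. Each group had 3 libraries. The series also has 9 ATAC libraries of the same treatments, which mark open chromatin, and 12 libraries of cells with or without doxycycline at 10 ng/mL and with or without blebbistatin at 10 µM, also labelled wildtype. The labels do not say what doxycycline switched on, how long the drugs were applied, the age of the animals, or whether the replicates came from separate animals or cultures, so p-values measure only the spread between these libraries. By its title and design text, the study was about mechanical cues, chromatin, matrix homeostasis and the co-activators Yap and Taz.

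Id proteins are helix-loop-helix proteins without a DNA-binding basic region. They pair with basic helix-loop-helix (bHLH) factors and keep them off DNA, and their genes are classic targets of BMP signalling. BMP receptors phosphorylate Smad1, Smad5 and the product of Smad9, also called Smad8, which then enter the nucleus with Smad4. Smad6 and Smad7 are inhibitory Smads, induced by the pathway and acting back on its receptors: Smad6 acts mainly on BMP signals and Smad7 on both BMP and TGF-β signals. In tendon cells these ligands are known regulators of growth and matrix production.

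In the mouse assembly GRCm38.p6, Id1 lies at chr2:152736251-152737410, Id2 at chr12:25093799-25096092, Id3 at chr4:136143822-136145392, Id4 at chr13:48261116-48266028, Smad6 at chr9:63953076-64022085 and Smad9 at chr3:54755455-54801662. Windows from 250 bases before to 50 bases after the transcription start, taken from RefSeq on GRCm38.p6, matched 5 of the 7 symbols (Id2, Id3, Id4, Smad6 and Smad9). They were searched on both strands for the palindromic Smad element GTCTAGAC, the GC-rich Smad element GGCGCC and the TEAD core GGAATG, TEAD factors being the DNA-binding partners of Yap and Taz. The 3 motifs do not overlap one another. The promoters of 3 Id genes are printed because Id2 rose and Id4 fell with both inhibitors, Id3 changed in opposite directions, and Id2 and Id4 hold the same GC-rich element. The fall of Id4 with Y27632 is a fragile call, as described below. Each line runs 5′ to 3′ on the gene's own strand and ends at the base before the gene, and capitals mark the GC-rich Smad element or the TEAD core, which reads CATTCC on these strands. The lines are chr12:25096093-25096342 on the minus strand (Id2), chr4:136143572-136143821 on the plus strand (Id3) and chr13:48260866-48261115 on the plus strand (Id4).
Id2: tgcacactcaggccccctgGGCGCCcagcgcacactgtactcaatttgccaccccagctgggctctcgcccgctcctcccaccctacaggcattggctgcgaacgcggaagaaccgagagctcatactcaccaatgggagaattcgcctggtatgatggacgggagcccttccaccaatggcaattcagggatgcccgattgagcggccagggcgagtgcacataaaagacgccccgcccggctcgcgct
Id3: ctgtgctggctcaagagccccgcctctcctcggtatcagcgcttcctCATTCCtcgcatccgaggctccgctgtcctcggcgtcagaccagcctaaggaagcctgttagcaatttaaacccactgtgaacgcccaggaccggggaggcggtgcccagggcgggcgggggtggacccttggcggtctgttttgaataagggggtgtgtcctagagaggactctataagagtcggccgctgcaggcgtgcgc
Id4: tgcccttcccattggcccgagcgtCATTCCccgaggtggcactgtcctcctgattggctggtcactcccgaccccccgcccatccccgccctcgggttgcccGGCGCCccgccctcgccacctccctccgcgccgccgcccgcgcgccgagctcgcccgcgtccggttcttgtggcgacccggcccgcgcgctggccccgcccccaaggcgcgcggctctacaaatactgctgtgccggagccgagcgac
GGCGCC began 231 bases before the start of Id2 and 148 bases before that of Id4, and 51 bases before a start of Smad9. It is a common string: 11.9% of 32851 RefSeq windows hold it. CATTCC began 203 bases before the start of Id3 and 226 bases before that of Id4, and the TEAD core is in 14.7% of windows. In the Smad6 window, GTCTAGAC began 4 bases before the start and ran across it, a string in 0.213% of windows. The starts of the Smad6 and Smad9 windows lie inside the gene spans given above. Their matches are therefore within those spans and not upstream of them. Such a match is a run of letters and not a measured binding site.

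The libraries held 23375386 to 37061737 reads in genes, and no replicate pair agreed within sampling noise (chi-square per degree of freedom 2.63 to 8.06). Blebbistatin replicates 2 and 3 differed most. Reads of the 7 genes ran from 63 for Id4 to 2120 for Id3 in a library, so Id4 had the fewest reads behind it. All 9 fibroblast and tendon markers (Col1a1, Scx and Tnmd among them) had a mean of at least 10, with a summed level of 798498 to 855652 in DMSO, 740681 to 815186 with blebbistatin and 826798 to 872557 with Y27632. Immune markers were also present: 5 of 5 (Ptprc, Cd68, Adgre1, Lyz2 and Csf1r) were detected, and all 5 were higher with each inhibitor at an adjusted p under 0.05 (limma). Their summed level was 5878 to 6511 in DMSO, 8450 to 9489 with blebbistatin and 8562 to 9758 with Y27632. In bulk RNA a change in the share of such cells and a change in RNA per cell cannot be told apart, and the part of these cells in the results on the 7 genes was not tested. Of 4 endothelial markers, 3 had a mean of at least 10, Pecam1 did not, and their sum was mostly Tek. Tek averaged 3274 in DMSO, 2123 with blebbistatin (log2 change -0.63, adjusted p = 1.08e-07, limma) and 2961 with Y27632 (-0.14, adjusted p = 0.00529, limma), while Cdh5 and Kdr did not pass the test. The summed level of 3 cartilage markers, of which Acan had a mean under 10, was 144 to 175 in DMSO, 221 to 241 with blebbistatin and 227 to 234 with Y27632. That of 3 adipocyte markers was 276 to 316, 276 to 321 and 185 to 221 in the same order. Adipoq and Plin1 had a mean under 10, so the adipocyte sum was mostly Fabp4. The part of these lists was not tested either. Of 4 skeletal muscle markers, Ckm and Myod1 were at 0 in all 9 libraries, Myh4 had a mean under 10, and Acta1 had a mean of at least 10. Their summed level was 28.2 to 36.3 in DMSO, 8.73 to 25.2 with blebbistatin and 15.2 to 30.5 with Y27632, and its part was not tested.

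With blebbistatin, all 7 genes changed against DMSO. Id1, Id2, Id3 and Smad9 rose, and Id4, Smad6 and Smad7 fell. The rise was largest for Id1, at 1.97-fold, and the smallest change was that of Smad7, which fell by 0.58 on the log2 scale. The Id genes and the BMP Smad gene Smad9 thus moved up together with the exception of Id4, while both inhibitory Smads moved down. A call means an adjusted p under 0.05 in limma on log2(normalised count + 1), and 53.0% of the 14882 genes tested were called, 26.1% higher and 26.9% lower. Being called is therefore common in this comparison. The 7 genes were chosen with earlier results known, so setting them beside all genes, here and below, is a description and not a test. The median absolute log2 change was 0.71 over the 7 genes and 0.22 over all genes tested. The 3 treated libraries lay wholly outside the range of the DMSO libraries for 7 of 7 genes, against 60.2% of all genes. A call with an absolute log2 change of at least 0.5 was made for 19.3% of all genes and for each of the 7.

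With Y27632, Id1 and Id2 rose, and Id3, Id4, Smad6 and Smad9 fell against the same 3 DMSO libraries. Smad7 did not pass the test. These 6 calls of 7 stand beside a background of 35.9% of 14833 genes, 18.1% higher and 17.8% lower. The call of Id4 was fragile, as described below: with DESeq2, 5 of the 7 were called and Id4 was not (adjusted p = 0.0946). The median absolute log2 change of the 7 genes was 0.44, against 0.15 over all genes. The groups did not overlap for 7 of 7 genes, Smad7 included, and for 48.1% of all genes. A call with an absolute log2 change of at least 0.5 was made for 8.32% of all genes, and for Smad6 and Smad9 among the 7.

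The 2 inhibitors were then set against each other, with the reads of all 9 libraries scaled together and tested with edgeR. With blebbistatin, Id1, Id3 and Smad9 were higher than with Y27632, and Id4, Smad6 and Smad7 were lower. Only Id2, of the 7, did not pass this test. The background was 53.1% of 14925 genes called, 26.9% higher and 26.2% lower with blebbistatin. The inhibitors did not overlap for 6 of 7 genes, against 60.5% of all genes. Each compound was used at 1 dose, and the doses differ, so a difference between them is one between these 2 treatments.

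**Figure D1:**
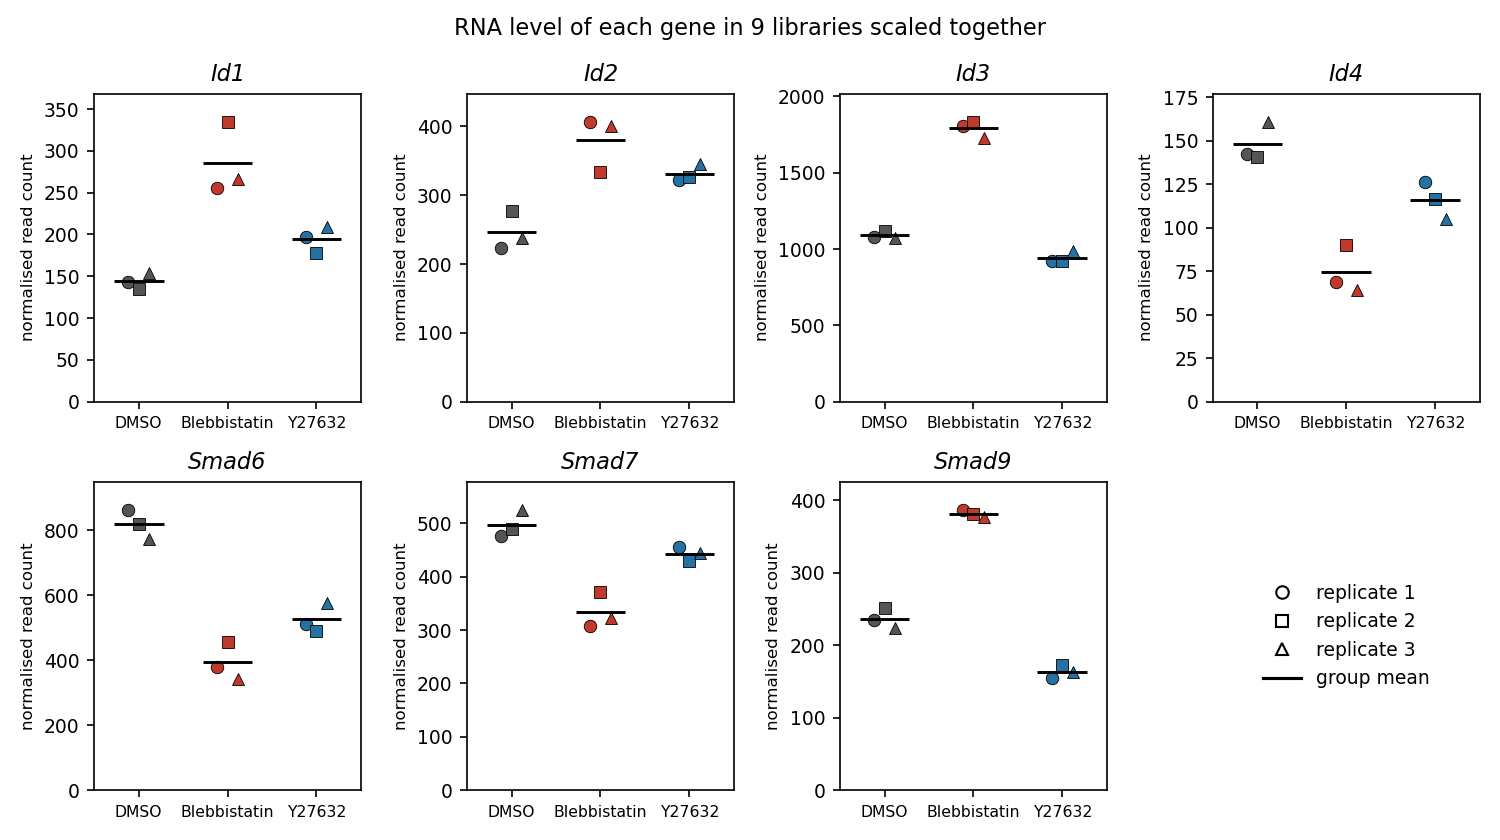
Normalised counts of the 7 genes in each of the 9 libraries, scaled together, with DMSO, blebbistatin and Y27632 side by side and 1 panel per gene; points are libraries, with a shape for each replicate number, and lines are group means (n = 3). The vertical axes start at 0 and differ between genes; Id3 and Smad9 are highest with blebbistatin and lowest with Y27632, and Id4, Smad6 and Smad7 are lowest with blebbistatin.

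Levels below are normalised counts of the 9 libraries scaled together and are compared only within a gene, because they were not divided by transcript length. Changes against DMSO were fitted within each deposited table, on the log2 scale.

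Id1 rose with both inhibitors, and more with blebbistatin. Its level was 143, 135 and 154 in DMSO, 256, 335 and 267 with blebbistatin and 197, 178 and 209 with Y27632. None of the 3 groups overlapped, and blebbistatin replicate 2 was the highest library. The change on the log2 scale was 0.98 with blebbistatin (SE 0.114, adjusted p = 1.41e-05, limma). It was 0.44 with Y27632 (SE 0.102, adjusted p = 0.00490, limma), and the inhibitors differed by 0.57 (SE 0.107, adjusted p = 0.000477, edgeR).

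Id2, the family member best known for binding E proteins in lymphoid and other cells, also rose with both. Its level was 223, 277 and 238 in DMSO, 407, 333 and 400.4 with blebbistatin and 323, 327 and 345 with Y27632. All 6 treated libraries were above the DMSO libraries, but the inhibitors overlapped, since blebbistatin replicate 2 lay within the Y27632 range. Against DMSO the log2 change was 0.62 with blebbistatin (SE 0.103, adjusted p = 0.000262, limma) and 0.44 with Y27632 (SE 0.0889, adjusted p = 0.00202, limma). The inhibitors differed by 0.20 (95% interval 0.01 to 0.40, adjusted p = 0.0729, edgeR). That difference did not pass the test, and its interval does not show that the inhibitors act alike. Without blebbistatin replicate 2 it was 0.29 with an adjusted p of 0.0109 (edgeR), so 1 library decides this call. Over all alternatives tried, its adjusted p ran from 0.0109 to 0.248.

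Id3 moved in opposite directions. Its level was 1082, 1121 and 1071 in DMSO, 1809, 1836 and 1729 with blebbistatin and 925, 921 and 987 with Y27632. The 3 groups were separate, in the order Y27632, DMSO, blebbistatin, and the libraries of a group lay close together. The log2 change was 0.71 with blebbistatin (SE 0.0428, adjusted p = 3.39e-08, limma). With Y27632 it fell by 0.21 (SE 0.0462, adjusted p = 0.00360, limma), the smallest of the changes that passed. The difference between the inhibitors was 0.93 (SE 0.0427, adjusted p = 4.87e-10, edgeR).

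Id4 fell, in contrast to the rest of its family with blebbistatin. Its level was 142, 140.4 and 161 in DMSO, 69.0, 90.1 and 64.0 with blebbistatin and 126, 116 and 105 with Y27632. The blebbistatin libraries lay well below the others, and the Y27632 libraries lay just below DMSO. Blebbistatin left 0.501 of the DMSO level (95% interval -1.32 to -0.68 on the log2 scale, SE 0.147, adjusted p = 0.000104, limma). With Y27632 it was -0.35 (SE 0.115, adjusted p = 0.0312, limma), and this call is fragile. It was lost with DESeq2 (adjusted p = 0.0946) and without any one of DMSO replicates 1 and 3 and Y27632 replicates 2 and 3 (limma, adjusted p 0.0504 to 0.114), and the authors' deposited table gives an adjusted p of 0.122. The inhibitors differed by -0.63 (SE 0.143, adjusted p = 0.00196, edgeR). The gene overlaps the long non-coding RNA A330033J07Rik over 1508 bp. That RNA was counted at a mean of 1.84 in DMSO, 3.57 with blebbistatin and 3.27 with Y27632, and whether counting used strand is not stated in the sources used here.

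Smad6, the inhibitory Smad of the BMP branch, fell with both inhibitors. Its level was 862, 820.4 and 773 in DMSO, 379.8, 457 and 342 with blebbistatin and 511, 491 and 577 with Y27632. The 3 groups did not overlap, and DMSO was highest. Its log2 change was -1.07 with blebbistatin (SE 0.0926, adjusted p = 1.01e-06, limma), which left 0.477 of the DMSO level, the largest fall of the 7. It was -0.64 with Y27632 (SE 0.0675, adjusted p = 1.15e-05, limma), the largest of the changes with that inhibitor. The inhibitors differed by -0.40 (SE 0.0926, adjusted p = 0.00216, edgeR).

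Smad7 (chr18:75367365-75395935, GRCm38.p6), the inhibitory Smad shared by both branches, fell with blebbistatin. Its level was 476, 489.7 and 525 in DMSO, 309, 371 and 323 with blebbistatin and 456, 430.0 and 444 with Y27632. The blebbistatin libraries were all below the others, and the Y27632 libraries were just below DMSO without overlap. The log2 change was -0.58 with blebbistatin (SE 0.0805, adjusted p = 6.63e-05, limma). With Y27632 it was -0.16 (95% interval -0.30 to -0.03, adjusted p = 0.0601, limma), which did not pass. The inhibitors differed by -0.40 (SE 0.0736, adjusted p = 0.000421, edgeR). The end of Smad7 overlaps the non-coding gene Gm41776 over 163 bp, whose mean count was under 1 in every group.

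Smad9, the receptor-activated member of the set, had the same order of groups as Id3. Its level was 234, 252 and 224 in DMSO, 386, 381 and 377 with blebbistatin and 155, 172 and 162 with Y27632. The groups were separate, and the blebbistatin libraries were nearly equal. The log2 change was 0.69 with blebbistatin (SE 0.0762, adjusted p = 8.98e-06, limma) and -0.53 with Y27632 (SE 0.0911, adjusted p = 0.000573, limma). The inhibitors differed by 1.23 (SE 0.0761, adjusted p = 9.76e-09, edgeR), or 2.35-fold, the largest difference between them among the 7.

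**Figure D2:**
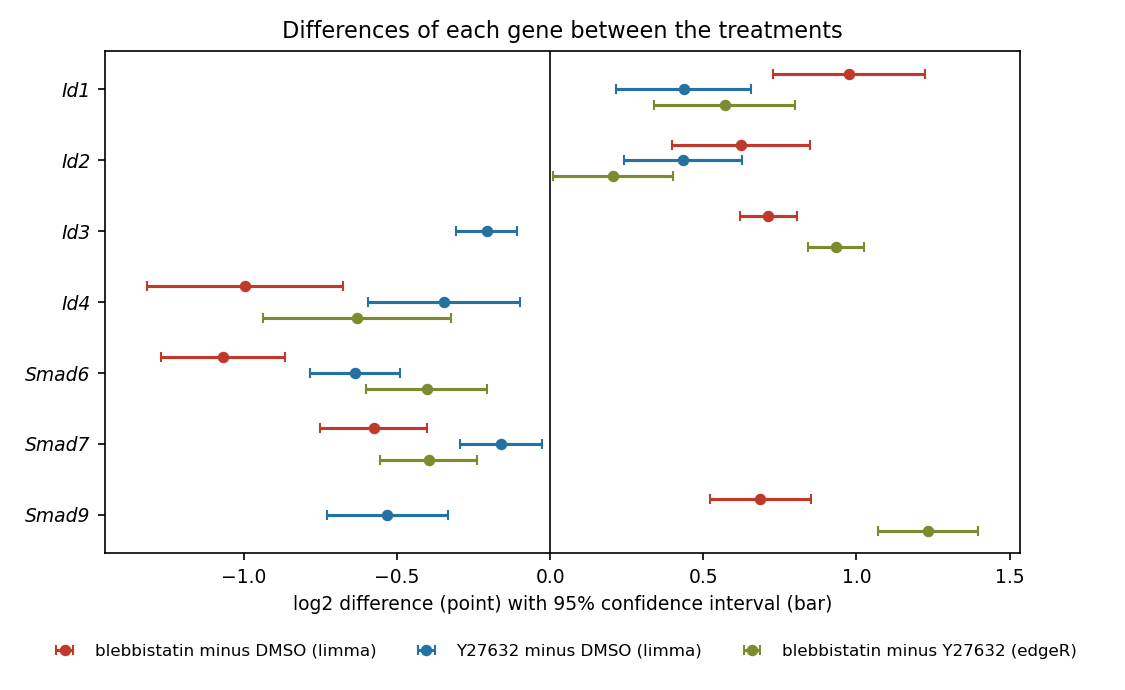
Log2 change of each of the 7 genes with blebbistatin and with Y27632 against DMSO (limma), and the log2 difference between the inhibitors (edgeR), with 95% intervals. Id3 and Smad9 lie on opposite sides of 0 for the 2 inhibitors, and Smad7 with Y27632 and Id2 between the inhibitors are the 2 values that did not pass the test.

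Both changes against DMSO share the same 3 control libraries, so they were not correlated with each other. Ranked by level, the order was DMSO, Y27632, blebbistatin for Id1, and DMSO below both inhibitors for Id2. It was Y27632, DMSO, blebbistatin for Id3 and Smad9. For Id4 and Smad6 it was blebbistatin, Y27632, DMSO, and for Smad7 blebbistatin lay below Y27632 and DMSO, which did not differ past the threshold. Of 14683 genes tested against DMSO with both inhibitors, 602 (4.10%) were called in both in opposite directions. Id3 and Smad9 are among those 602.

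Among 11446 genes with a mean of at least 100, the 3 most like each of the 7 were found by Pearson's r over the 9 libraries. These values describe libraries that fall into 3 treatment groups, so they mainly follow the group means. All 21 values lay between 0.973 and 0.998. Id3 was most like Ttc39c, C1qtnf6 and Vsir, and Smad9 was most like Tab1, Specc1 and Mst1r, all highest with blebbistatin and lowest with Y27632. The nearest to Smad6 were Trappc9, Ptrf (which encodes the caveolar coat protein cavin-1) and Kifc3, and Ptrf fell from a mean of 31274 in DMSO to 21789 with blebbistatin and 24985 with Y27632. The nearest to Id1 were Vegfb, Itm2b and Snx3, and to Id2 5730409E04Rik, Rell1 and Dock4. Among the nearest to Id4 were Tsfm and Stambpl1, and the nearest to Smad7 were Azi2, Klc2 and Tmem147.

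The remaining genes of the pathway were followed in 8 lists holding 88 genes, some in more than 1 list. With blebbistatin, 27 of the 77 genes tested rose, 27 fell and 23 did not pass, and the median log2 change was 0.01, against 0.00 over all genes. With Y27632, 28 of 78 rose, 13 fell and 37 did not pass, with a median of 0.04 against 0.00. The called share was 70.1% and 52.6%, beside 53.0% and 35.9% of all genes. Over all genes, 26.1% were called higher and 26.9% lower with blebbistatin, and 18.1% and 17.8% with Y27632. The counts of each list below stand beside these shares, as a description and not a test.

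Among the ligands, 6 of 13 tested rose and 5 fell with blebbistatin. Gdf10, a divergent BMP family member, rose from 23.5 ± 4.51 to 273 ± 27.9 (SD, n = 3 in each group, log2 change 3.50, SE 0.159, adjusted p = 2.74e-09, limma). Tgfb2 rose by 1.16. Bmp4, a main BMP ligand, fell by 2.07 (SE 0.0738, adjusted p = 3.39e-10, limma), and Gdf6 fell by 2.23. Bmp6 fell by 1.51, Bmp3 fell by 1.08, and Inhba, which encodes the activin A subunit, fell by 1.68. The BMP ligands did not move one way: Bmp5 rose by 1.45 (49.2 to 136 on average, SE 0.127, adjusted p = 1.08e-06, limma), and Bmp2 had a log2 change of 0.06 (adjusted p = 0.742, limma), which did not pass. Bmp5 and this value of Bmp2 were chosen after their values were seen. With Y27632, 7 ligands rose and 4 fell. Bmp4 fell by 0.66 (SE 0.0563, adjusted p = 1.61e-06, limma), Gdf6 fell by 1.01 and Bmp6 fell by 0.95, while Inhbb rose by 1.05, Bmp3 by 0.70 and Bmp2 by 0.64.

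The secreted antagonists split 5 higher and 5 lower of 10 with blebbistatin, and 4 higher and 3 lower with Y27632. Grem1, which binds BMP2 and BMP4 outside the cell, rose from 628 ± 65.5 to 2841 ± 112 with blebbistatin (SD, n = 3 in each group, log2 change 2.18, SE 0.0670, adjusted p = 9.83e-11, limma), and by 1.45 with Y27632 (SE 0.0705, adjusted p = 9.15e-09, limma). Nbl1, a relative of Grem1, rose by 1.84 with blebbistatin and 0.77 with Y27632. Fst, the activin-binding protein follistatin, fell by 1.56 with blebbistatin and fell by 0.26 with Y27632, and Chrd fell by 0.49 with Y27632. Of 15 receptors and co-receptors, 4 rose and 4 fell with blebbistatin, and 5 rose and 2 fell with Y27632. The called shares of all genes were 53.0% and 35.9%. Bambi, a receptor-like inhibitor without a kinase domain, rose by 0.81 and the BMP co-receptor gene Rgmb by 0.88 with blebbistatin, and the type I receptor genes Acvrl1 (-0.29) and Bmpr1b (-0.27) fell with Y27632.

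Of the 5 signal-carrying Smads, Smad1 to Smad5, 0 rose and 3 fell with blebbistatin. On the log2 scale Smad2 fell by 0.60, Smad1 fell by 0.21 and Smad3 fell by 0.21. With Y27632 Smad3 rose by 0.48, Smad2 fell by 0.14, and Smad1, Smad4 and Smad5 did not pass. These Smads are named because the list is short, after their values were seen. Of 14 intracellular regulators, such as the ubiquitin ligases Smurf1 and Smurf2, 2 rose and 7 fell with blebbistatin, and 4 rose and 2 fell with Y27632.

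Among bHLH factors, with which Id proteins can pair directly or through shared partners, 9 of the 11 tested rose and 0 fell with blebbistatin, and 7 of 12 rose and 0 fell with Y27632. The median log2 change of this list was 0.26 and 0.32, against 0.00 over all genes. Of all genes, 26.1% rose and 26.9% fell with blebbistatin, and 18.1% rose and 17.8% fell with Y27632. Twist2, a mesenchymal repressor, rose by 0.95 and 1.14, Bhlhe41, a clock-linked repressor, rose by 1.06 with blebbistatin, and Hes1, a repressor downstream of Notch, rose by 1.65 with Y27632 (179 ± 7.55 to 564 ± 41.5, SD, n = 3 in each group, adjusted p = 6.20e-09, limma). A further 6 and 5 genes of the 17 listed were too low to be tested, so the counts cover only expressed factors. Between the inhibitors, 4 of the 11 tested were higher and 3 lower with blebbistatin (edgeR).

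Of 9 known BMP response genes, 4 rose and 1 fell with blebbistatin, and 1 rose and 0 fell with Y27632. Their median log2 changes were 0.33 and -0.06, and the called shares of all genes were 53.0% and 35.9%. Some of these response genes, such as Bambi, were also counted in the lists above. Of 8 TGF-β response genes, 2 rose and 5 fell with blebbistatin, and 2 rose and 1 fell with Y27632. Skil, Pmepa1 and Tgif1 among them were also counted as intracellular regulators. Ctgf, a matricellular gene that Yap and Taz also regulate, fell by 1.60 with blebbistatin (SE 0.0995, adjusted p = 4.52e-08, limma).

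**Figure D3:**
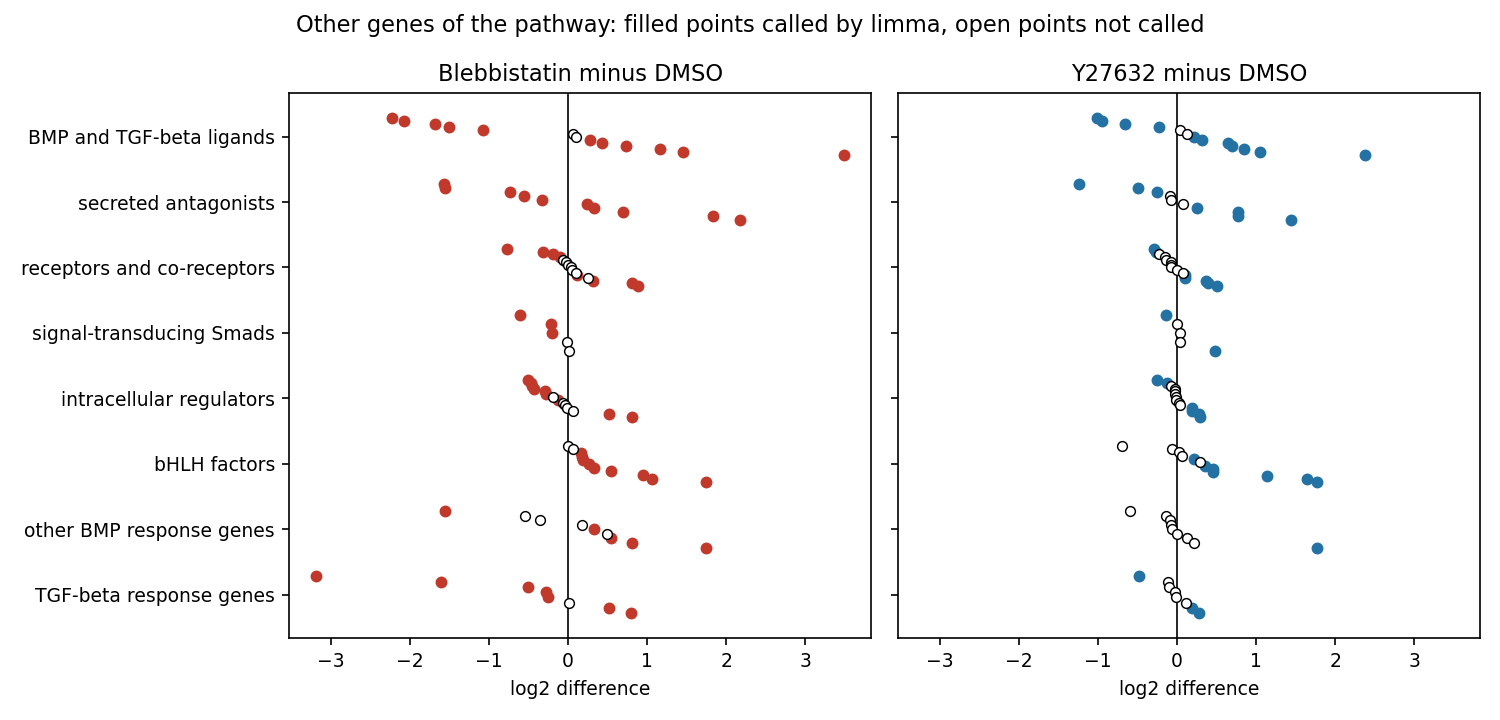
Log2 change against DMSO of the tested genes of the 8 BMP and TGF-β pathway lists, 1 point per gene, for blebbistatin and Y27632, with called genes filled and the others open. The bHLH list has no called gene below 0 with either inhibitor, while ligands and antagonists reach far to both sides with blebbistatin.

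Chromatin sites were compared as the authors' deposited lists give them, with group means and the authors' FDR and without values per library, so no test was run. The largest FDR in any list is 0.05. The smallest absolute log2 fold is 1.24 and 1.11 in the ATAC lists of blebbistatin and Y27632. It is 1.0 in each list of the cells with or without doxycycline. A gene without a site is therefore one that is not listed, and smaller changes are not covered. None of the 7 genes had a site in the ATAC lists (970 sites with blebbistatin and 207 with Y27632). None had one among the 1231 sites of blebbistatin without doxycycline or the 6346 of blebbistatin with doxycycline. The doxycycline list without blebbistatin held 7613 sites, 3 of them annotated to the 7 genes, and all 3 were higher with doxycycline, as were 95.8% of its sites. This list, too, is limited to an absolute log2 fold of at least 1. Its reference column is headed as blebbistatin without doxycycline. At 13 sites shared with another list its mean difference was -0.13 (SD 0.0044) from the cells without either drug and 1.12 (SD 0.184) from the blebbistatin cells, so it was read as neither drug.

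A site at the Id1 promoter (chr2:152736089-152736400, mm10, at -6 bp from the start) had a log2 mean of 7.78 with doxycycline and 6.73 with neither drug, a log2 fold of 1.05 at an FDR of 8.88e-05 in the authors' deposited table. A second site, in an intergenic CpG island at -1044 bp from the start of Id1 (chr2:152735070-152735343), had 7.78 and 6.76, a log2 fold of 1.03 at an FDR of 1.04e-05 in the same table. These folds are among the smaller of the list, of which 18.4% and 11.8% have a smaller absolute fold. The Smad7 site (chr18:75367180-75367768, 109 bp after the start) had 9.11 and 7.87, a log2 fold of 1.24 at an FDR of 2.88e-08 in the authors' deposited table. Of the promoter sites in the list, 81.1% had a lower fold than that site and 29.0% a lower fold than the Id1 promoter site. The annotation assigns the Smad7 site to the gene Smad7 but names as its promoter the transcript of the adjoining non-coding gene Gm20544. RNA was not measured in the doxycycline groups used here, so these sites have no matching expression values.

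**Figure D4:**
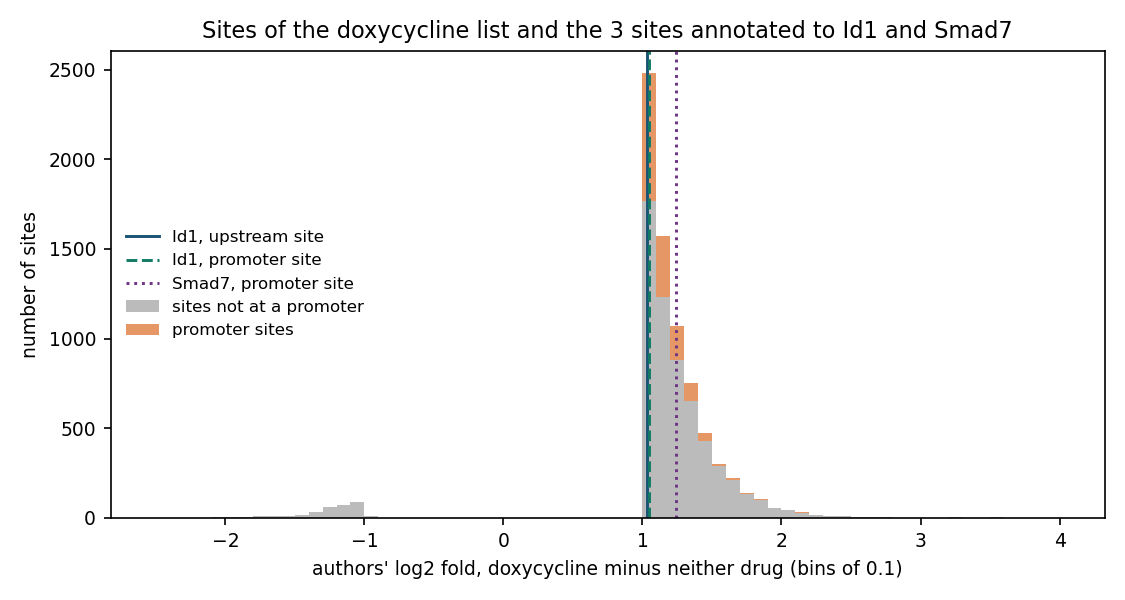
Number of sites by the authors' log2 fold of doxycycline over neither drug, in bins of 0.1, with promoter sites stacked on all others, and vertical lines at the 3 sites annotated to Id1 and Smad7. The list has no site between -1 and 1, and the lines lie at 1.03, 1.05 and 1.24.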

How the data were processed

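Per the submitters' processing notes, the tools included HISAT2, Picard, featureCounts and DESeq2 for RNA, Bowtie2, SAMtools, MACS2, DiffBind and HOMER for sites, and the build mm10. Versions, settings and the use of strand are not given in the sources used here. The RNA tables hold a signal, normalised counts, that the authors deposited after scaling each library by its own size factor, with each table scaled by itself. Whole reads were recovered from the steps between values (100% whole within 0.1 reads), and the DMSO reads came out identical in both tables. For DMSO replicate 1 in the blebbistatin table that step is 0.993, too near 1 to show recovery by itself, so DMSO reads were taken from the Y27632 table. The log2 fold changes and p-values in these tables are the authors', per the file headers. The site lists hold log2 group means, log2 folds, p-values and FDRs that the authors deposited, and the distance to the start is another value per the file headers.

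Genes averaging at least 10 normalised counts were tested with limma 3.58.1 (trend, log2(normalised count + 1), two-sided) in R 4.3.3, which understates changes of low genes. The inhibitors were compared with edgeR 4.0.16 (TMM scaling, quasi-likelihood test) fitted to the recovered reads of 9 libraries. DESeq2 1.42.0, other pseudocounts, filters and scalings, a replicate block and leaving out each library were alternatives. Adjusted p-values are Benjamini-Hochberg values over all genes tested. The scripts were tested on simulated data. Named pathway genes are, per inhibitor, the called list genes with the 8 highest and 8 lowest log2 changes at a mean of at least 100, and some genes that meet the naming rules are not reported here. The 7 genes and the lists were chosen with earlier results of these data known. Replicate numbers were not used to pair the samples in the main fits, because the labels do not state a pairing.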

Additional observations from a re-analysis of the deposited data

How the results depend on the processing

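The 21 results on the 7 genes (7 in each of 3 comparisons) were recomputed under 15 alternatives each, 315 values in all, and 0 reversed direction. Of these, 307 kept their side of the threshold. Some alternatives could not change direction. Against DMSO, limma with another filter or a replicate block gives the same log2 change as the main fit. Leaving out a DMSO library hardly moves the difference between the inhibitors. The 7 that lost a call were all Id4 with Y27632, whose adjusted p ran from 0.0278 to 0.114: DESeq2 gave -0.34 (adjusted p = 0.0946), edgeR on all 9 libraries scaled together, added after seeing the data, gave -0.35 (adjusted p = 0.0580), and the fit with a replicate block gave -0.35 (limma, adjusted p = 0.0576). The other 4 left out 1 library each. The 1 gained call was Id2 between the inhibitors. Leaving out each library in turn gave 7 to 7 called genes with blebbistatin, 5 to 6 with Y27632 and 6 to 7 between the inhibitors. With the replicate block the counts were 7, 5 and 6, and over all genes 7604, 4633 and 7699 against 7894, 5328 and 7926. Samples with the same number did not deviate together (r from -0.08 to 0.05 over genes, against -0.09 to 0.09 for different numbers). With 3 libraries per group this cannot exclude a pairing, and the labels state none. The count of 3 sites was the same at an FDR under 0.01 and within 50 kb of the start. With 63 to 166 reads per library, Id4 was the least precise of the 7, and the depth of the site libraries is unknown here.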

Other observations

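Several listed sites lay within 100 kb of one of the 7 genes but were annotated to a neighbour. They are given as values of the authors' deposited tables, and no link to the 7 genes was tested. An intergenic ATAC site 63160 bp from Smad6, annotated to Smad3, was lower with blebbistatin (log2 fold -1.28, FDR 0.041). A site in intron 2 of Bcl2l1, 84569 bp from Id1, was in both lists with doxycycline: it was higher with doxycycline alone (1.92, FDR 2.26e-09) and lower when blebbistatin was added to doxycycline (-1.23, FDR 5.40e-06). A site annotated to Gm10532, 59940 bp from Smad7 and inside an intron of a different gene's transcript, did the same (1.11, FDR 6.46e-05, and -1.33, FDR 1.36e-06). No other site within 100 kb of the 7 genes was in both lists. The Bcl2l1 promoter site, 93130 bp from Id1, was listed only as higher with doxycycline (1.06, FDR 8.17e-07). An intergenic site 70158 bp from Smad6 was listed only as lower when blebbistatin was added to doxycycline (-1.32, FDR 0.000351). So was a site 88452 bp from Smad7 (-1.02, FDR 0.00245). A site in an intron of Gm20544, 3904 bp from Smad7, was higher with doxycycline (1.38, FDR 4.65e-07), as was a site in an intron of Kidins220, 77721 bp from Id2 (1.30, FDR 9.52e-06). An intron site of 1110036E04Rik, 28054 bp from Smad6, was also higher (1.13, FDR 1.96e-06).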
